A study of Danio rerio with 2 samples.

Results

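Transcripts of the pyruvate dehydrogenase kinases pdk1 and pdk2 were measured in zebrafish larvae 10 days post fertilization (dpf), with RNA taken from the whole body. The pair was chosen by gene symbol, when its change between wild-type (WT) and NOD1-deficient larvae was already known, so its values are given as a description without a test. The 2 genes are those of 84 pathway genes on a PI3K-Akt PCR array that the array annotates as pyruvate dehydrogenase kinases. NOD1 is an intracellular receptor for fragments of the bacterial cell wall. The study compared WT larvae of the AB/TU background with homozygous larvae of a single Cas9/gRNA line, NOD1-1IS-/-, which carries an insertion of 1 bp in the NOD1 gene. Each of the 2 groups had 3 biological replicates, each a pool of 200 to 250 whole larvae run on its own 96-well array. The pools mix all cell types of the larva. For its hatching and survival assays, the study took eggs and larvae from WT and from NOD1-1IS-/- parents. The parents and clutches of the array pools are not stated, so genotype and clutch cannot be told apart.

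Pyruvate dehydrogenase kinases sit in the mitochondrial matrix and phosphorylate the pyruvate dehydrogenase complex. This phosphorylation switches the complex off, so that less pyruvate is turned into acetyl-CoA and more is left for lactate or for the synthesis of glucose. In mammals, PDK1 is best known as a gene induced by hypoxia and PDK2 as the most widely expressed isoenzyme, and insulin signaling through Akt and Foxo factors controls genes of the family. The name PDK1 is also used for 3-phosphoinositide-dependent kinase, the kinase that phosphorylates Akt and that is encoded by pdpk1 genes. The assay called pdk1 here is not that kinase, which has an assay of its own on the array, pdpk1b.

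The array gives accession XM_678484 for pdk1 and NM_200996 for pdk2. In the RefSeq annotation of the GRCz12tu assembly, the first is pdk1 and the second is now called pdk2b, and the 2 genes lie on different chromosomes. The symbols of 6 zebrafish pyruvate dehydrogenase kinase genes were looked up and found there, without a search for further members. Of these 6, 2 have an assay on the array, while pdk2a, pdk3a, pdk3b and pdk4 have none. The values below therefore cover 2 genes and not the family. Primer and amplicon sequences were not used here, so it was not tested whether the pdk2 assay also reads pdk2a.

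Every assay yielded a threshold cycle (Ct), which counts how many PCR cycles a product needs to reach a set brightness, so that each cycle later stands for about 2 times less template. All 6 arrays gave a Ct for every gene, with lowest values of 13.9 to 14.4 and highest values of 33.1 to 35.1, and the genomic DNA control well gave a Ct on 0 arrays. Both kinases lay well inside this range. The targeted gene has no assay on the array, so these data hold no check of the genotype.

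In WT larvae, pdk2 crossed the threshold far earlier than pdk1. The Ct of pdk2 was 18.8, 18.9 and 18.8 in WT replicates 1, 2 and 3. The Ct of pdk1 was 22.5, 22.5 and 22.7 in the same arrays. Among the 84 pathway genes ordered by mean WT Ct, pdk2 had rank 3 and pdk1 rank 39, counted from the earliest. This order also depends on the primers and the length of each product, and is not an order of transcript number.

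The question that the array addressed was whether loss of NOD1 goes with other transcript levels of PI3K-Akt pathway genes. Expression was read as delta Ct, for which the averaged Ct of 3 reference genes (hprt1, nono, rpl13a) was taken off the Ct of the gene, array by array. On this scale pdk1 was about 4.0-fold lower and pdk2 about 1.43-fold lower in NOD1-deficient larvae. In bulk RNA of whole larvae, fewer cells that express a gene and less of its RNA per cell cannot be told apart.

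The delta Ct of pdk1 was 2.68, 2.91 and 2.79 in WT replicates 1, 2 and 3. It was 4.86, 4.84 and 4.68 in NOD1-deficient replicates 1, 2 and 3. The values of the 2 groups did not overlap, and their closest values were 1.77 cycles apart, while the replicates spanned 0.228 cycles among WT and 0.180 among NOD1-deficient larvae. The means were 2.79 ± 0.114 (WT) and 4.79 ± 0.101 (NOD1-deficient) with their SD over 3 replicates. The log2 change (NOD1-deficient minus WT) was -2.00 ± 0.0880 (SE from the gene's own replicates). The median of all 84 genes was -0.11, and measured from that median pdk1 changed by -1.89.

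The change of pdk1 was already present in the Ct before any scaling. Its Ct was 24.2, 24.4 and 24.2 in NOD1-deficient replicates 1, 2 and 3, against 22.5 to 22.7 in WT, a mean difference of 1.70 cycles. The reference genes hprt1, nono and rpl13a together moved the other way, by -0.30 cycles, from 19.8 ± 0.144 to 19.5 ± 0.107 (SD, n = 3 each). Of the change of pdk1, counted in Ct, most thus lay in its own wells and a small part in those of the reference genes. By Ct, the rank of pdk1 among the 84 genes went from 39 in WT to 64 in NOD1-deficient larvae, counted from the earliest.

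The change of pdk2 was smaller, and the shift in Ct of the reference genes was a larger part of it. Its delta Ct was -0.99, -0.69 and -1.05 in WT replicates 1, 2 and 3. It was -0.35, -0.52 and -0.31 in NOD1-deficient replicates 1, 2 and 3. The groups did not overlap here either, but WT replicate 2 came within 0.170 cycles of the NOD1-deficient values, and the 3 WT replicates alone spanned 0.367 cycles. The means were -0.91 ± 0.197 (WT) and -0.39 ± 0.109 (NOD1-deficient) with their SD over 3 replicates. The log2 change was -0.52 ± 0.130 (SE from the gene's own replicates), or -0.41 relative to the median of all genes. Before scaling, the Ct of pdk2 was later by only 0.222 cycles in NOD1-deficient larvae, from 18.9 ± 0.0568 to 19.1 ± 0.112 (SD, n = 3 each), with the closest values 0.0756 cycles apart. Counted in Ct, the shift of -0.30 cycles in the reference genes was the larger part of this change, unlike for pdk1. Unscaled Ct is no neutral baseline, however. The positive PCR control wells, whose template does not come from the larvae, shifted by -0.154 cycles as well. Scaled to those wells, the log2 change of pdk2 was -0.38.

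**Figure D1:**
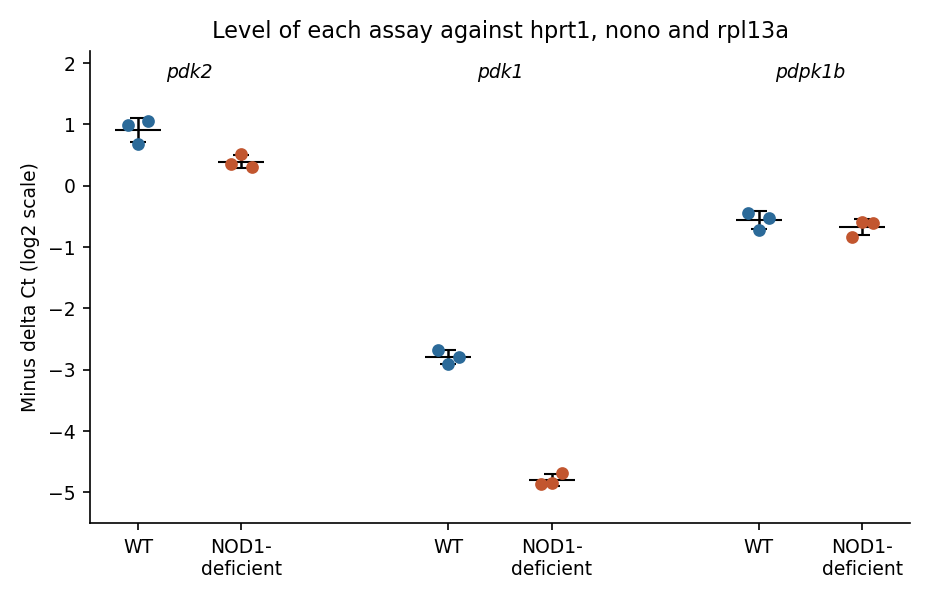
Minus delta Ct (log2 scale, y axis) of pdk2, pdk1 and pdpk1b in WT and NOD1-deficient larvae. Points are the 3 replicates of each group, horizontal lines their means and error bars the SD. The NOD1-deficient points of pdk1 lie 1.77 cycles or more below its WT points, those of pdk2 lie 0.170 cycles or more below, and those of pdpk1b overlap its WT points.

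Of the 2 kinases, 2 had NOD1-deficient replicates that all lay below the WT replicates, and of the 84 pathway genes this was so for 21.4%. Because the pair was chosen with this contrast known, nothing is read from that count. Among the other 82 pathway genes, 81 had a higher and 1 a lower log2 change than pdk1. For pdk2 the numbers were 74 and 8. Such an order of genes does not depend on the reference genes. The spread of pdk1 within groups was among the smaller ones on the array, with rank 9 of 84 counted from the lowest, and that of pdk2 had rank 42.

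The ratio of the 2 paralogs needs no reference gene, since both were read on the same array. In WT replicates 1, 2 and 3, pdk1 crossed the threshold 3.67, 3.59 and 3.84 cycles after pdk2. In NOD1-deficient replicates 1, 2 and 3 it did so 5.21, 5.36 and 4.98 cycles after pdk2. All NOD1-deficient arrays thus had a wider gap than any WT array, and the closest values of the groups were 1.14 cycles apart. On average the gap was 3.70 ± 0.128 cycles for WT and 5.18 ± 0.189 cycles for NOD1-deficient arrays (SD, n = 3 each). The gap widened by 1.48 ± 0.132 cycles (SE). To turn the gap into abundance, a doubling of product in each cycle and equal signal per copy in both assays have to be assumed. On these assumptions, pdk2 was 13.0 times as abundant as pdk1 in WT larvae and 36.3 times as abundant without NOD1.

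**Figure D2:**
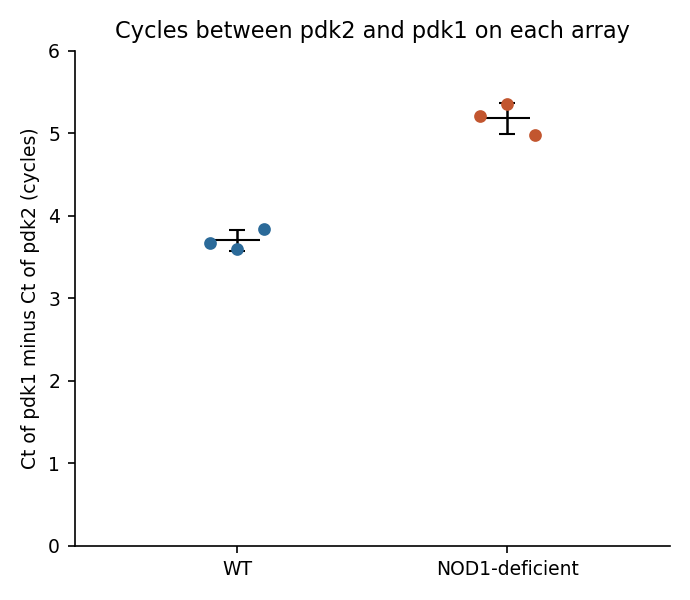
Ct of pdk1 minus Ct of pdk2 (cycles, y axis) on each of the 6 arrays, with no reference gene involved. Points are replicates, horizontal lines group means and error bars the SD. The WT arrays lie between 3.59 and 3.84 cycles and the NOD1-deficient arrays between 4.98 and 5.36.

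Expressed as a share, pdk1 made up 7.28%, 7.66% and 6.51% of the summed signal of both kinases in WT replicates 1, 2 and 3. It made up 2.64%, 2.38% and 3.06% in NOD1-deficient replicates 1, 2 and 3. The share thus went from 7.15% ± 0.583 to 2.69% ± 0.345 (SD, n = 3 each), with no overlap. The size of the WT ratio rests on equal efficiency and equal signal per copy of the assays, neither of which was measured here. If pdk1 alone had been amplified by a factor of 1.9 per cycle in place of 2, the WT ratio of pdk2 to pdk1 would be 4.09, and if pdk2 alone, 34.3. The widening of the gap kept its direction in each of these cases. With a Ct later by 1.70 cycles for pdk1 and by 0.222 for pdk2, such factors could not have reversed it. The kept direction is thus no separate result.

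The summed signal of both kinases was lower in NOD1-deficient larvae for every choice of reference except acta1b alone. Of that fall, pdk2 made up 74.4% to 86.4%, except with b2m alone. On the linear scale (2 to the power of minus delta Ct), mean pdk1 went from 0.145 in WT to 0.0362 in NOD1-deficient larvae, a loss of 75.0%. Mean pdk2 went from 1.89 to 1.31, a loss of 30.5%. The sum of both was 2.14, 1.74 and 2.22 in WT replicates 1, 2 and 3. It was 1.31, 1.46 and 1.28 in NOD1-deficient replicates 1, 2 and 3. The groups did not overlap, and the sum was 33.6% lower, of which pdk2 contributed 84.1% and pdk1 15.9%. With b2m as the only reference gene, the sum was lower by a log2 change of -0.089, and pdk1 contributed 69.3% of its fall and pdk2 30.7%. With acta1b alone the sum was higher, by a log2 change of 0.33. The shares also rest on equal efficiency and equal signal per copy of the assays.

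The choice of reference genes moved both kinases by the same amount. Under 9 other scalings of the arrays, pdk1 was lower in 9 of 9 and at least 2-fold lower in 9 of 9, with log2 changes from -2.16 (nono alone) to -1.09 (acta1b alone). For pdk2, 8 of 9 scalings gave a lower and 1 a higher value. Its log2 change was -0.24 with all 5 reference genes, -0.022 with b2m alone and 0.39 with acta1b alone. A scaling adds the same constant to every gene, so the difference of -1.48 between the kinases, and that of -0.41 between pdk2 and the median gene, could not move. With acta1b alone the median gene itself changed by 0.80.

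**Figure D3:**
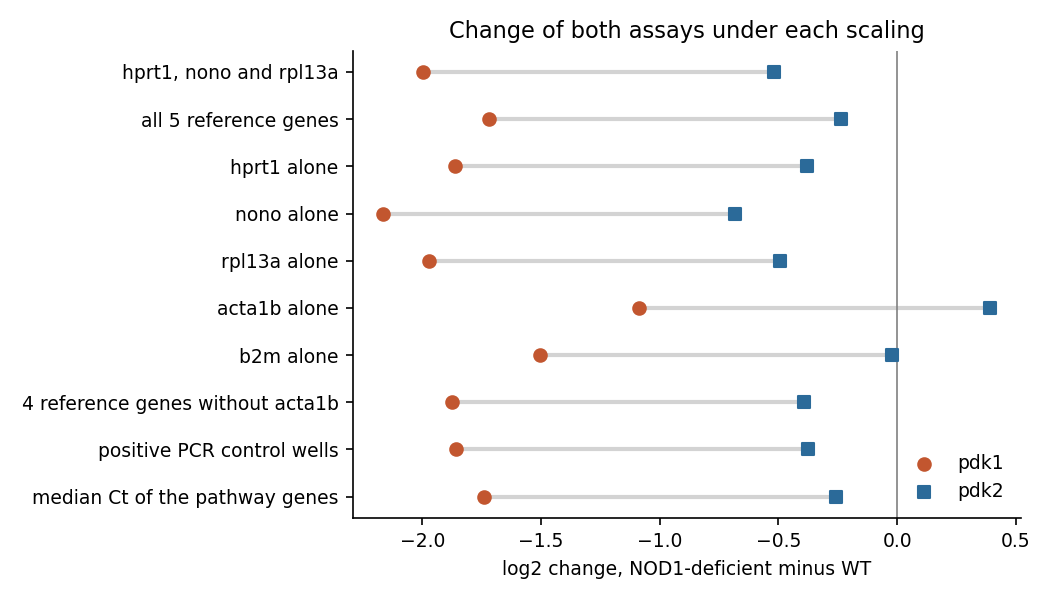
log2 change from WT to NOD1-deficient larvae (x axis) of pdk1 (circles) and pdk2 (squares) when the arrays were scaled to the genes or wells named on the y axis. Points are differences of group means over 3 replicates each. The grey bar between them is 1.48 long in every line by construction, pdk1 stays at or below -1.09 and pdk2 crosses 0 with acta1b alone.

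Markers of cell types that whole larvae contain moved as well. The level of acta1b, a skeletal muscle actin that serves as a reference gene on this array, lay between 7.93 and 9.18 for WT and between 3.12 and 5.54 for NOD1-deficient larvae, relative to hprt1, nono and rpl13a, a log2 change of -0.91. The 2 genes used as leukocyte markers went opposite ways. The level of btk, a kinase of B cells and myeloid cells, changed by -0.66. That of faslg, the ligand of the death receptor Fas on cytotoxic lymphocytes, changed by 0.62. The summed level of these 2 genes lay between 0.0157 and 0.0200 for WT and between 0.0105 and 0.0127 for NOD1-deficient larvae. That sum was nearly all btk, at 0.0149 to 0.0195 in WT against 0.000552 to 0.000769 for faslg. It therefore repeats btk and gives no direction for leukocyte content. The part of muscle or leukocyte content in the changes of pdk1 and pdk2 was not tested. Read against acta1b, pdk1 was lower by a log2 change of -1.09 and pdk2 was higher by 0.39.

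The 3 positive PCR control wells, whose template does not come from the larvae, averaged 19.7 ± 0.0126 cycles on WT arrays and 19.5 ± 0.0574 on NOD1-deficient ones (SD, n = 3 each). Scaled to these wells, the log2 change was -1.86 for pdk1 and -0.38 for pdk2. The kinases were read in neighbouring wells, E3 and E4, on each array. The other 10 genes of row E had log2 changes from -1.46 (pik3r2) to 0.09 (pik3cg) with a median of -0.21.

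The namesake kinase pdpk1b, read in the next well (E5), was then compared. Its delta Ct was 0.437, 0.716 and 0.527 in WT replicates 1, 2 and 3. It was 0.829, 0.598 and 0.604 in NOD1-deficient replicates 1, 2 and 3, so that the groups overlapped. The log2 change was -0.12 ± 0.158 (SE of limma, the same for every gene), and the SE from its own replicates was 0.112. The adjusted p was 0.707 (limma, two-sided, Benjamini-Hochberg adjusted over the 84 genes). The sign of the log2 change depended on the scaling, from -0.28 with nono alone to 0.79 with acta1b alone. Under the latter alone the adjusted p of limma fell under 0.05 (0.00897). Scaled to hprt1, nono and rpl13a, pdk1 thus differed by 4.0-fold, and its namesake pdpk1b by less than the spread between replicates.

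In mammals, insulin and insulin-like growth factor signaling through PI3K, Akt and Foxo factors controls pyruvate dehydrogenase kinase genes. Of 15 genes of this branch on the array (symbols starting with igf, irs, pik3, pten, akt, foxo or pdpk), 2 were lower, 0 were higher and 13 did not pass an adjusted p of 0.05 in limma. Over all 84 pathway genes, 15.5% were called lower and 3.57% higher. The 84 genes, over which p was adjusted, include both kinases. These were chosen with this contrast known, so no call is read for them. Of the 82 other genes, 11 were called lower, or 13.4%. The 2 of 15 genes were near that share, so nothing is read from their count. Without adjustment, 5 of the 15 genes had a p under 0.05 in limma, against 26 of all 84 genes, the kinases included. The shares were alike, so nothing is read from this count either. The median log2 change was -0.18 in the branch and -0.11 over the 84 genes. The count and its direction depended on the scaling, with 1 gene lower and 2 higher with all 5 reference genes, and 0 lower and 12 higher with acta1b alone.

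The 2 genes that were lower were pik3r2 and irs1. The log2 change of pik3r2, a regulatory subunit of PI3-kinase, was -1.46 ± 0.158 (SE of limma) with an adjusted p of 8.63e-17 in limma. The SE from its own replicates was 0.123. For irs1, an adaptor of the insulin receptor, the log2 change was -0.59 ± 0.158 (SE of limma) with an adjusted p of 0.00147 in limma. The replicates of irs1 overlapped between groups, however, and its own SE was 0.248. The transcription factor genes foxo1a and foxo3b had log2 changes of -0.32 and 0.08 with adjusted p of 0.153 and 0.807 in limma. The genes that did not pass ranged from -0.36 to 0.17.

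**Figure D4:**
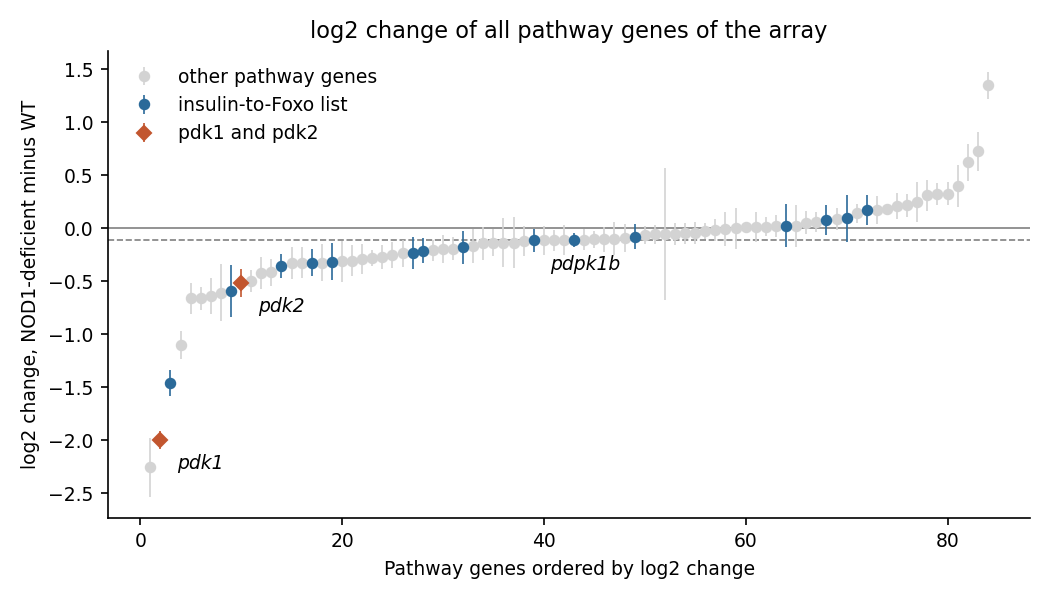
log2 change from WT to NOD1-deficient larvae (y axis) of the 84 pathway genes in order of their change (x axis). Points are differences of means over 3 replicates each, error bars the SE from each gene's own replicates, and the dashed line the median of -0.11. The diamonds are pdk1 at -2.00, passed by 1 gene only, and pdk2 at -0.52, within the run of genes between -0.66 and 0.

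Genes whose profile over the 6 arrays was most like that of each kinase were found by the root mean square difference of minus delta Ct, after each gene was centred on its mean. That mean covers both groups, so the distance largely follows the difference in log2 change, above all for pdk1. Like log2 changes among the nearest genes were thus built in and are no separate result. For pdk1 these were pik3r2 (0.297), tlr4bb (0.338), a Toll-like receptor, and itgb1b (0.483), an integrin subunit, while the median of the other genes was 0.955. Their log2 changes were -1.46 for pik3r2, -2.26 for tlr4bb and -1.10 for itgb1b. The assay of tlr4bb was read near the end of the range, where its Ct averaged 31.6 (WT) and 33.5 (NOD1-deficient), and had an own SE of 0.276, whereas pdk1 was read at 22.6 and 24.3. For pdk2 the nearest were grb2b (0.0864), an adaptor of receptor tyrosine kinases, elk1 (0.0933), a transcription factor of the MAP kinase pathway, and shc1 (0.0945), another receptor adaptor, against a median of 0.260. Their log2 changes were -0.50, -0.66 and -0.42. The distance between pdk1 and pdk2 was 0.752, so neither kinase was among the 3 genes nearest to the other.

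Gaps within other gene families on the array were set beside that of the kinases. These pairs were picked after their values were seen and got no test. The gap between pik3r2 and pik3r1, both regulatory subunits of PI3-kinase, went from 4.56 ± 0.0818 to 5.91 ± 0.10 cycles (SD, n = 3 each), a widening of 1.35 ± 0.0748 (SE) that was close to the 1.48 ± 0.132 of the kinases. The gap between akt1 and akt2 hardly moved, from 1.52 ± 0.0293 to 1.5 ± 0.334 cycles (SD, n = 3 each), with overlapping replicates. Uneven change within a family was therefore seen in the regulatory subunits of PI3-kinase as well.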

How the data were processed

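Whole larvae of 2 genotypes were compared on a commercial SYBR Green PCR array, with 1000 ng of total RNA reverse transcribed per array and 40 PCR cycles. The values the authors deposited as raw Ct are scores in cycles. Threshold settings are not given in the sources used here. The authors also deposited normalized values, linear ratios to the reference genes, 1 for each gene and genotype. Taking hprt1, nono and rpl13a as reference genes, and a Ct over 35 as 35 (1 value, in neither kinase), raw Ct gave these ratios back within 1.91e-06 on the log2 scale. A table of the authors' fold changes was not used.

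GEO lists 1 sample per genotype and the raw table has 3 columns for each, which the series text describes as biological replicates. No 2 arrays of a group were copies (SD of their Ct differences 0.209 to 0.270). No run or plate lot is given, so runs and groups cannot be told apart. A Ct difference was read as a log2 difference. Minus delta Ct of all 84 pathway genes was fitted by lmFit and eBayes of limma 3.58.1 in R 4.3.3, which gave every gene an SE of 0.158. Its p-values thus rest on a spread shared by all genes. Precision is limited by the number of arrays, and with 3 against 3 the smallest p that a two-sided exact rank test could give is 0.1. The members, lists and tests were chosen with earlier results of these data known. Named genes were the kinases, pdpk1b, the 3 nearest profiles of each kinase, called genes of the insulin-to-Foxo branch, reference genes and markers. Other genes, foxo1a, foxo3b and the family pairs included, were named after their values were seen. RefSeq names were matched by accession. Results on 1 further gene are not reported here.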

Additional observations from a re-analysis of the deposited data

How the results depend on the processing

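Every scaling adds the same constant to each gene. The log2 change of pdk1 was -1.72 with all 5 reference genes, -1.86 with hprt1 alone, -2.16 with nono alone, -1.09 with acta1b alone, -1.50 with b2m alone, -1.88 without acta1b, -1.86 scaled to positive PCR wells and -1.74 scaled to each array's median Ct. That of pdk2 was -0.24 with all 5 reference genes, -0.68 with nono alone, 0.39 with acta1b alone, -0.022 with b2m alone and -0.26 scaled to the median Ct. At an amplification factor of 1.9 or 1.8 per cycle for every assay, pdk1 changed by -1.85 or -1.70 and the WT log2 ratio of pdk1 to pdk2 (-3.70) was -3.43 or -3.14. At 1.8 the change of that ratio (-1.48) was -1.26. With a factor of 1.9 for pdk1 alone or pdk2 alone, alternatives chosen after seeing the data, the WT log2 ratio was -2.03 or -5.10. The log2 change of the summed kinases (-0.59), whose scalings were added after seeing the data, was -0.30 with all 5 reference genes, -0.75 with nono alone, 0.33 with acta1b alone, -0.089 with b2m alone and -0.33 scaled to the median Ct. Its other 4 scalings moved it by less than the spread of replicates. So did the other alternatives for pdk1, pdk2, their ratio and its change, also when each replicate was left out in turn and with the authors' normalized values.

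The log2 change of pdpk1b (-0.12) was 0.16 with all 5 reference genes, 0.021 with hprt1 alone, 0.79 with acta1b alone, 0.38 with b2m alone, 0.0073 without acta1b, 0.026 scaled to positive PCR wells and 0.14 scaled to the median Ct, with adjusted p from 0.00897 to 0.984 over 19 alternatives. The 16 pathway genes called (13 lower, 3 higher) were 27 with nono alone, 72 with acta1b alone (2 lower, 70 higher), 41 with b2m alone (4 lower, 37 higher), 10 with the control wells (5 lower, 5 higher), 25 scaled to the median Ct (7 lower, 18 higher) and 6 in a linear model without moderation. With all 5 reference genes there were 22 (6 lower, 16 higher), and with hprt1 alone or without acta1b 16 (9 lower, 7 higher). Leaving out 1 replicate gave 10 (WT replicate 3 out) to 21 (WT replicate 2 out). The 2 genes called in the insulin-to-Foxo branch (both lower) were 5 with nono alone (all lower), 3 with all 5 reference genes (1 lower), 12 with acta1b alone (0 lower), 6 with b2m alone (1 lower), 2 scaled to the median Ct (1 lower), 1 with the control wells (lower), 1 without moderation (lower), and, leaving out 1 replicate, 1 (WT replicate 3 out) to 3 (WT replicate 2 out). The median log2 change of all genes was 0.17 with all 5 reference genes and 0.80 with acta1b alone.

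Deviations of same-numbered arrays from their group means had correlations of 0.12, 0.085 and -0.27 across genes. Scaling had already taken out shifts common to a whole array, so these values cannot show whether replicate numbers pair the arrays. A replicate block in limma gave 14 called genes, 2 of them in the branch. The limit on Ct had no bearing on either kinase.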
